A study of Mus musculus with 6 samples.

Results

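The 10 genes described here are linked to the detection of DNA in the cytosol, or to the removal of DNA or its building blocks. They are Mb21d1, Tmem173, Aim2, Zbp1, Trex1, Samhd1, Ifi204, Ifi205, Ifi203 and Mndal. They were taken by symbol from the 24411 genes of each expression table, and all 10 were present. Their RNA was measured in macrophages of the inbred mouse strain C57BL/6 after 7 days of growth from monocytes of the bone marrow. Before culture the monocytes had been sorted by flow cytometry into cells high for LFA1 and Itgam (LFA1-hi Itgam-hi, called LFA1-hi below) and cells low for both (LFA1-lo Itgam-lo, called LFA1-lo), with 3 libraries for each. LFA1 and Itgam are integrins, the adhesion receptors of leukocytes. Both groups were kept in RPMI with 10% FBS, 1% P/S, 1% glutamine and 20 ng/ml M-CSF, the growth factor that turns monocytes into macrophages, and the medium was refreshed on day 4. No mutation, infection or added DNA is named in the labels for either group. Whether the 3 libraries in each group stem from different mice or dishes is not stated, so the p-values speak for these samples alone, and the spread they rest on may be technical.

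Cells normally keep DNA in the nucleus and mitochondria, and DNA in the cytosol is read as a sign of infection or damage. The enzyme cGAS, encoded by Mb21d1, binds such DNA and makes the messenger cGAMP, which activates STING, encoded by Tmem173, and through it the type I interferon genes. Aim2 binds DNA as well but assembles an inflammasome, the caspase-activating complex that releases interleukin-1. Zbp1 binds left-handed nucleic acid and can start necroptosis, a lytic form of cell death. Trex1 degrades cytosolic DNA and Samhd1 breaks down deoxynucleotides, so both limit what the sensors can find or what viruses can build from. Ifi204, Ifi205, Ifi203 and Mndal belong to the interferon-inducible Pyhin family, to which Aim2 also belongs.

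Summed expected counts per library were between 15191262 and 17614509, and 13248 to 13585 genes had a count above 0. Levels are given as CPM, counts per 1000000 reads of a library, or as TPM. TPM also divides by transcript length and allows different genes to be set side by side. CPM was scaled by library totals, without TMM factors. Fold changes come from a fit with TMM factors, so they can differ slightly from ratios of CPM. A count of 3 was 0.170 to 0.197 CPM. Macrophage markers were abundant in all libraries, with a summed level of 16079 ± 1038 CPM in LFA1-hi and 21424 ± 3390 CPM in LFA1-lo (mean ± SD, n = 3 each). Of 10 such markers 5 fell and 0 rose. All 12 markers of dividing cells rose, and their summed level was 2601, 2797 and 2494 CPM in LFA1-hi replicates 1 to 3, against 849, 731 and 1167 CPM in LFA1-lo replicates 1 to 3. Itgam, whose protein was used in the sort, was at 1237 ± 76.7 CPM in LFA1-hi and 1236 ± 121 CPM in LFA1-lo after culture. Many markers that define other blood cells were absent: Cd3e, Cd3g, Cd3d, Ncr1, Gzma, Pax5, Ebf1, Flt3, Ccr7, Gata1 and Hbb-bs were at 0 in all 6 libraries. Pf4 (281 CPM in LFA1-hi and 255 CPM in LFA1-lo) and Bst2 (67.9 and 68.5 CPM) held nearly all of the summed level of the megakaryocyte and dendritic cell lists. In the B cell list Cd79b did so, at 2.64 CPM in LFA1-hi and 2.43 CPM in LFA1-lo. The 10 granulocyte markers summed to 88.4 to 115 CPM in LFA1-hi and 81.1 to 177 CPM in LFA1-lo, most of it from Mmp8 (96.3 ± 13.7 CPM in LFA1-hi and 100.5 ± 47.1 CPM in LFA1-lo), which did not pass. Of 6 tested 1 rose (Cebpe) and 3 fell: Ngp (0.582 CPM in LFA1-hi and 10.2 CPM in LFA1-lo), S100a9 (0.567 and 9.39 CPM) and Ltf (0.271 and 3.94 CPM, means of n = 3 each). The LFA1-lo libraries differed more among themselves than the LFA1-hi libraries, and 1 of them stood apart for the genes that interferon induces: all 28 genes of an interferon-stimulated list had their lowest LFA1-lo value in replicate 1, which holds for 27.45% of tested genes. Over tested genes LFA1-lo replicate 2 differed most from the other LFA1-lo libraries. The chi-square per degree of freedom between counts was 34.37 with replicate 1 and 48.97 with replicate 3, against 13.75 between replicates 1 and 3. Where leaving out LFA1-lo replicate 1 changed a call or sign of the 10 genes, or a count of the gene lists below, the value without it is given. For the cell type markers above, values with a library left out are not given.

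All 10 genes passed the filter on low counts. In edgeR's quasi-likelihood test, with Benjamini-Hochberg adjustment across the 11692 genes tested and a call at adjusted p below 0.05, 1 was higher in LFA1-hi (Mb21d1), 4 were lower (Trex1, Samhd1, Ifi203 and Mndal) and 5 did not pass. Over all tested genes 16.1% were called higher and 15.6% lower, 31.7% in all. The counts of the gene lists below are to be read against the same shares. In CPM, scaled by library totals alone, the values of the groups did not overlap for 5 of the 10 genes, against 48.1% of tested genes. The median log2 fold change (LFA1-hi minus LFA1-lo) of the 10 was −0.50, and that of all tested genes was −0.0047. Leaving out 1 library changed the number that were lower to 2 (without LFA1-hi replicate 1 or 3), 3 (without LFA1-hi replicate 2 or LFA1-lo replicate 2 or 3) or 6 (without LFA1-lo replicate 1), while Mb21d1 stayed the single higher gene. In these bulk samples fewer cells that express a gene and less RNA per cell cannot be told apart.

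**Figure D1:**
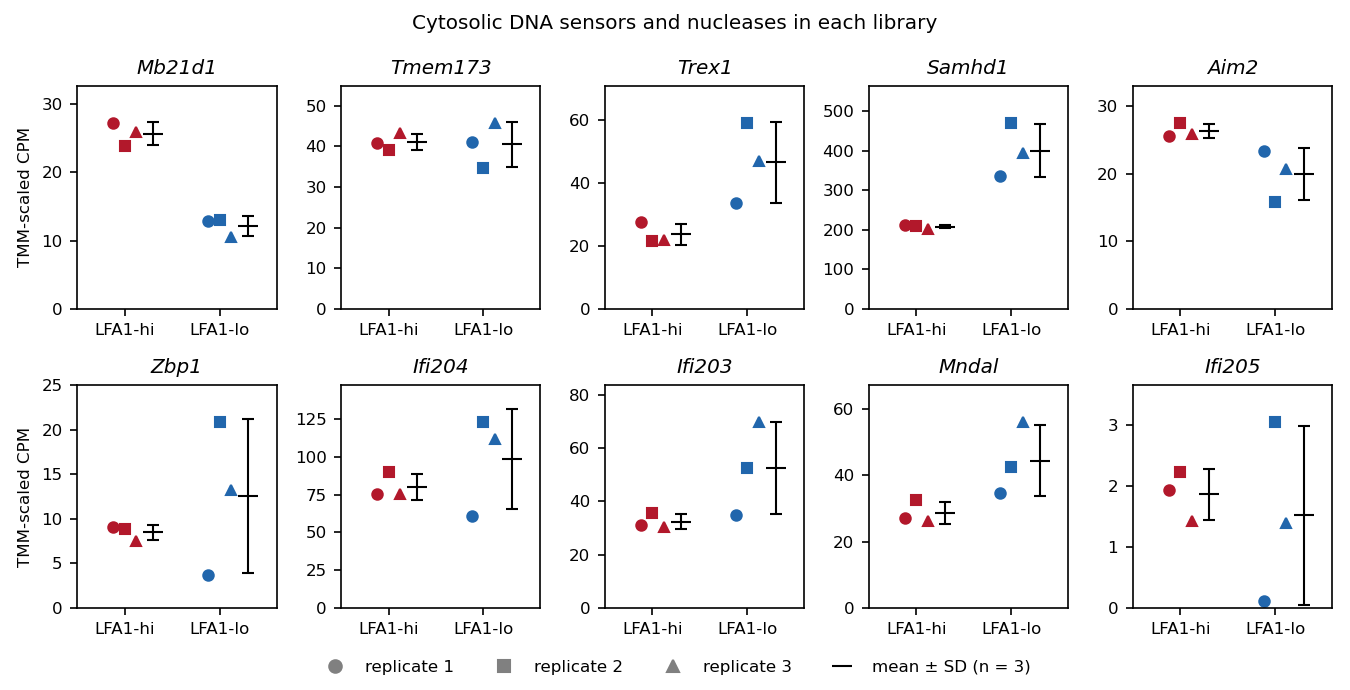
Level of each gene in CPM (vertical axes, each from 0) in the 3 LFA1-hi and the 3 LFA1-lo libraries. The marker shows the replicate and the black bar the mean ± SD. The axis label names TMM scaling, but the values were scaled by library totals alone. Mb21d1 was near 25.7 CPM in LFA1-hi and 12.1 CPM in LFA1-lo, Trex1 and Samhd1 were lower in LFA1-hi without overlap, and for Zbp1, Ifi204 and Ifi205 LFA1-lo replicate 1 lay far below the other LFA1-lo libraries.

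Mb21d1, which RefSeq names Cgas, lies on the minus strand of chromosome 9 at 78430518 to 78443237 (GRCm38). It was at 27.3, 23.9 and 26.0 CPM in LFA1-hi replicates 1 to 3, against 12.9, 13.0 and 10.5 CPM in LFA1-lo replicates 1 to 3. Every LFA1-hi library was above every LFA1-lo library. The level was 25.7 ± 1.69 CPM in LFA1-hi and 12.1 ± 1.41 CPM in LFA1-lo (SD, n = 3 each), which is 2.03-fold higher (95% interval 1.63 to 2.52, log2 fold change 1.02, SE 0.14, edgeR adjusted p = 0.000752). It passed the threshold under all 18 other settings that were run, with log2 fold changes of 0.89 to 1.09.

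Tmem173, named Sting1 in RefSeq, encodes the receptor for the cGAS product. It was at 40.9, 39.1 and 43.2 CPM in LFA1-hi replicates 1 to 3, against 41.2, 34.6 and 45.7 CPM in LFA1-lo replicates 1 to 3. The LFA1-hi values lay inside the LFA1-lo range. The log2 fold change was −0.04 (SE 0.11, 95% interval −0.29 to 0.21, edgeR adjusted p = 0.820), so the interval holds changes of up to 1.16-fold upward and down to 0.818 of the LFA1-lo level. Its sign turned positive with library totals in place of TMM scaling (0.02). The TPM of Mb21d1 divided by that of Tmem173, a ratio chosen after the values were seen, was 0.358, 0.323 and 0.318 in LFA1-hi, against 0.167, 0.203 and 0.123 in LFA1-lo.

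Of 17 genes that act with STING or limit its signal 16 were tested; 2 rose, 2 fell and the median log2 fold change was −0.02. Ifnb1, the interferon gene that the route switches on, was listed at 0 in all 6 libraries. Enpp1, which degrades cGAMP outside the cell, was at 43.0, 49.6 and 49.9 CPM in LFA1-hi and 23.7, 15.8 and 28.8 CPM in LFA1-lo (log2 fold change 1.00, SE 0.18, edgeR adjusted p = 0.00365). Ikbke, a kinase that phosphorylates interferon regulatory factors, was at 42.6 ± 5.74 CPM in LFA1-hi and 76.8 ± 8.60 CPM in LFA1-lo (SD, n = 3 each, log2 fold change −0.92, edgeR adjusted p = 0.000835). The others that passed were G3bp1, reported to help cGAS bind DNA (0.43), and Irf3, the transcription factor that STING signalling activates (−0.45, edgeR adjusted p = 0.0355). Tbk1, the kinase that STING recruits, did not pass, with 85.2 ± 4.69 CPM in LFA1-hi and 94.7 ± 6.05 CPM in LFA1-lo (SD, n = 3 each). Leaving out LFA1-hi replicate 1 or 2 gave 1 gene that rose and 1 that fell, leaving out LFA1-hi replicate 3 gave 2 and 1, and leaving out LFA1-lo replicate 2 gave 3 and 4.

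Trex1, the main DNA exonuclease of the cytosol, lies on the minus strand of chromosome 9 at 109057932 to 109059723 (GRCm38). It was at 27.6, 21.7 and 21.9 CPM in LFA1-hi replicates 1 to 3, against 33.6, 59.1 and 47.0 CPM in LFA1-lo replicates 1 to 3. All LFA1-hi libraries were below all LFA1-lo libraries, with LFA1-lo replicate 1 the nearest. Trex1 was 2.05-fold lower in LFA1-hi (log2 fold change −1.04, SE 0.21, 95% interval −1.52 to −0.55, edgeR adjusted p = 0.00702) and passed under all 18 other settings, with −1.23 to −0.81. RefSeq places a read-through transcript with Atrip over Trex1, and 91.6% of the 50-base stretches of Trex1 transcripts also occur in Atrip transcripts. These stretches were counted in GENCODE transcripts, by which most reads of Trex1 could also come from Atrip. The annotation release behind the deposited counts is not given. The expected counts of Trex1 were whole in all 6 libraries, so they show no sharing out of its reads between genes. Atrip itself was at 9.84 ± 1.42 CPM in LFA1-hi and 9.64 ± 1.57 CPM in LFA1-lo (SD, n = 3 each, log2 fold change −0.04, edgeR adjusted p = 0.899).

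Samhd1, a triphosphohydrolase that lowers the pool of deoxynucleotides, lies on the minus strand of chromosome 2 at 157097534 to 157135096 (GRCm38). It had the highest TPM of the 10 genes in both groups. It was at 211, 208 and 203 CPM in LFA1-hi replicates 1 to 3, against 336, 469 and 393 CPM in LFA1-lo replicates 1 to 3. All LFA1-hi libraries were below all LFA1-lo libraries, and the SD was 4.20 CPM in LFA1-hi and 67.0 CPM in LFA1-lo (n = 3 each). The gene was 2.02-fold lower in LFA1-hi (log2 fold change −1.01, SE 0.12, 95% interval −1.29 to −0.74, edgeR adjusted p = 0.000399), and under all 18 other settings it passed, with −1.13 to −0.86.

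Samhd1 and Trex1 fell while many genes that supply deoxynucleotides rose. Of 10 genes of deoxynucleotide synthesis and salvage 7 rose (Rrm1, Rrm2, Tyms, Tk1, Dck, Dtymk and Dut) and 2 fell (Tk2 and Dguok, the mitochondrial kinases), with a median log2 fold change of 1.24. Rrm2, the cell-cycle-controlled subunit of ribonucleotide reductase, was at 231, 239 and 205 CPM in LFA1-hi, against 54.0, 48.0 and 60.1 CPM in LFA1-lo (log2 fold change 1.99, SE 0.10, edgeR adjusted p = 9.81e-06). Tk1, the cytosolic thymidine kinase, was at 86.3 ± 3.32 CPM in LFA1-hi and 23.3 ± 4.63 CPM in LFA1-lo (SD, n = 3 each, log2 fold change 1.83, edgeR adjusted p = 2.97e-05). The TPM of Samhd1 divided by that of Rrm2, again a ratio chosen after the values were seen, was 0.484, 0.462 and 0.522 in LFA1-hi, against 3.28, 5.16 and 3.44 in LFA1-lo. The count that rose was 7 whichever library was left out, and the count that fell was 1, except for 2 when LFA1-lo replicate 2 was the one left out. Dividing cell markers rose in the same libraries, and their part in the results for Mb21d1, Trex1 and Samhd1 was not tested.

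The 250 bases before the start site of 7 of the genes could be read from RefSeq (GRCm38.p6) and were searched on both strands for the core of the interferon-stimulated response element (GAAA, any 2 bases, then GAAA again) and for the gamma-activated site of STAT factors, TTCNNNGAA. The second was found before 1 of these genes, Samhd1, and in 7.02% of all 32851 windows. The stretch is shown since Samhd1 had the smallest adjusted p of the 4 genes that fell. It is chr2:157135247-157135346, minus strand, with the matching letters in capitals, 235 bases before the start.
Samhd1: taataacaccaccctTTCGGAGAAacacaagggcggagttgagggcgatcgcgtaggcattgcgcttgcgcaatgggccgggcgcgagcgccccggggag
Neither motif was found in the windows of Mb21d1, Aim2 and Trex1. A match or its absence in such a window is a description of the letters and says nothing of what binds there.

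Among 18 other nucleases and proteins that limit self nucleic acid, 13 were tested, 3 rose and 3 fell, with a median log2 fold change of 0.10. Those that rose were the 3 subunits of RNase H2, which removes ribonucleotides from DNA: Rnaseh2a (0.39), Rnaseh2c (0.63) and Rnaseh2b. Rnaseh2b was at 26.3 ± 1.56 CPM in LFA1-hi and 11.2 ± 1.65 CPM in LFA1-lo (SD, n = 3 each, log2 fold change 1.16, edgeR adjusted p = 0.000337). Those that fell were Pld3, Dnase1l1 (−0.69) and Apobec3 (−0.55), which restricts retroviruses. Pld3, a lysosomal exonuclease, was at 253 ± 23.9 CPM in LFA1-hi and 502 ± 91.0 CPM in LFA1-lo (SD, n = 3 each, log2 fold change −1.05, edgeR adjusted p = 0.000921). Leaving out LFA1-lo replicate 1, or LFA1-hi replicate 1 or 2, gave 1 gene of this list that rose, and leaving out LFA1-hi replicate 3 gave 2.

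Other sensors of DNA moved in both directions. Of 16 other proteins reported to sense DNA 7 rose and 2 fell, with a median log2 fold change of 0.22. The number that rose shrank to 5 when LFA1-lo replicate 1 was dropped, and to 6 when LFA1-hi replicate 2 or 3 was. It grew to 8 when LFA1-lo replicate 2 was dropped, while 2 fell in each of these fits. The 7 that rose are Hmgb1, Hmgb2, Hnrnpa2b1, Dhx9, Mre11a, Rad50 and Xrcc6, which are known chiefly for work on chromatin, RNA or DNA repair in the nucleus, with log2 fold changes of 0.34 to 1.07. The 2 that fell were Tlr9, the receptor for DNA in endosomes, and Unc93b1, which carries it there. Tlr9 was at 5.96, 5.46 and 4.32 CPM in LFA1-hi, against 20.9, 25.8 and 30.3 CPM in LFA1-lo (log2 fold change −2.35, SE 0.19, edgeR adjusted p = 4.77e-05). Unc93b1 was at 215 ± 10.3 CPM in LFA1-hi and 480 ± 56.2 CPM in LFA1-lo (SD, n = 3 each, log2 fold change −1.22, edgeR adjusted p = 6.69e-05).

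**Figure D2:**
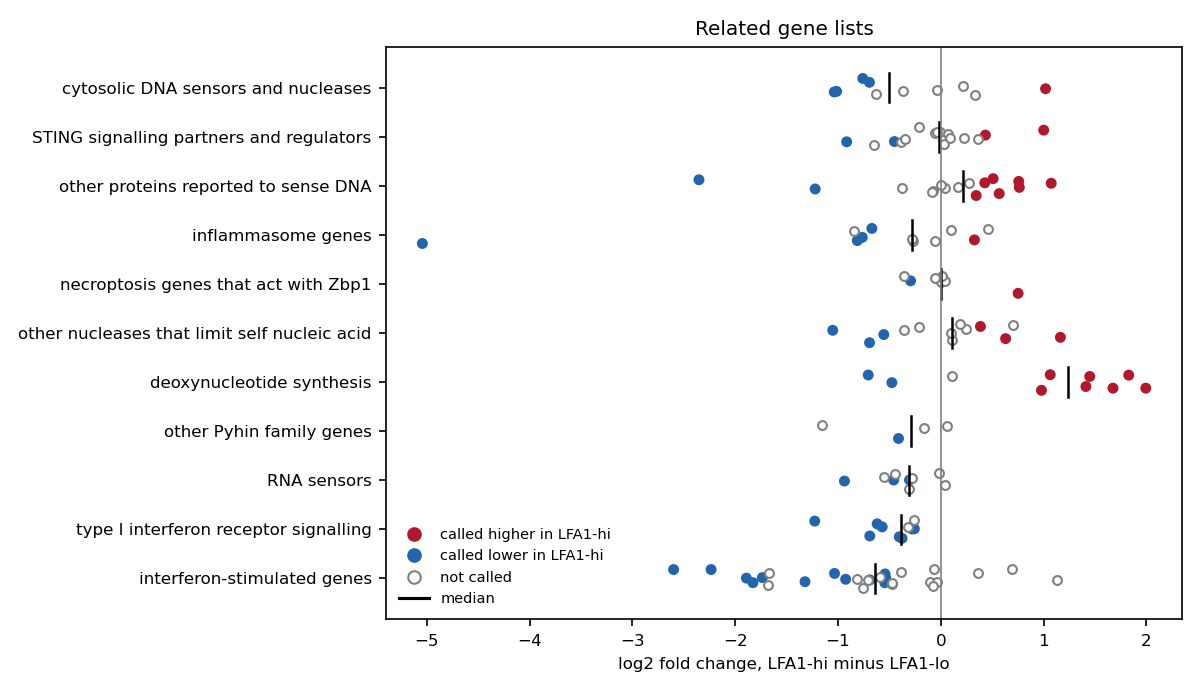
Log2 fold change (horizontal axis, LFA1-hi minus LFA1-lo) of the tested genes of each list, with filled points for genes that passed the threshold and a line at the list's median. Deoxynucleotide synthesis lies to the right with a median of 1.24, interferon-stimulated genes lie to the left with a median of −0.64, and the STING partners lie around 0.

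Aim2 lies on the plus strand of chromosome 1 at 173349547 to 173466040 (GRCm38). It was at 25.6, 27.5 and 26.0 CPM in LFA1-hi replicates 1 to 3, against 23.4, 15.8 and 20.7 CPM in LFA1-lo replicates 1 to 3. Every LFA1-hi library was above every LFA1-lo library, yet the difference did not pass the threshold (log2 fold change 0.34, SE 0.14, 95% interval 0.01 to 0.66, unadjusted p = 0.0421, edgeR adjusted p = 0.103), and it passed in 0 of 18 other settings. Cadm3 overlaps the gene in RefSeq and was at 0 in all 6 libraries. Of 11 inflammasome genes 1 rose and 4 fell, with a median log2 fold change of −0.28. Pycard, the adaptor that links Aim2 to caspase-1, rose (0.33, edgeR adjusted p = 0.0363), but 0 genes of the list rose once LFA1-lo replicate 1 or any of the LFA1-hi libraries was left out. Leaving out LFA1-lo replicate 2 gave 2 that rose. Casp4, the mouse caspase-11 that binds bacterial lipopolysaccharide, was at 10.0 ± 0.432 CPM in LFA1-hi and 16.9 ± 2.31 CPM in LFA1-lo (SD, n = 3 each, log2 fold change −0.81, edgeR adjusted p = 0.00303). Il1b, the cytokine that inflammasomes mature, had 0, 3 and 3 counts in LFA1-hi and 61, 100 and 39 counts in LFA1-lo (edgeR adjusted p = 0.000912). Nlrc4 (−0.76) and Gsdmd (−0.67), the pore-forming protein of pyroptosis, were the others that fell.

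Zbp1 lies on chromosome 2 at 173206612 to 173218959 (GRCm38). It was at 9.14, 8.82 and 7.56 CPM in LFA1-hi replicates 1 to 3, against 3.64, 20.8 and 13.3 CPM in LFA1-lo replicates 1 to 3. The LFA1-lo libraries enclosed the LFA1-hi values, and the highest was 5.72 times the lowest, against 1.21 times in LFA1-hi. The log2 fold change was −0.63 (SE 0.54, 95% interval −1.90 to 0.63, edgeR adjusted p = 0.414). It was −1.08 and passed without LFA1-lo replicate 1 (edgeR adjusted p = 0.0140), and leaving out replicate 2 of that group gave −0.03. The mean transcript length that was estimated for Zbp1 also differed, with 1244 bases in LFA1-lo replicate 1 and 930 to 1038 bases in the other 5 libraries. Of 7 genes that act with Zbp1 in necroptosis 1 rose and 1 fell. Ripk3, the kinase that Zbp1 recruits, was at 49.7, 50.8 and 46.3 CPM in LFA1-hi, against 22.7, 32.7 and 27.9 CPM in LFA1-lo (log2 fold change 0.75, SE 0.14, edgeR adjusted p = 0.00347). Mlkl, which Ripk3 activates, did not pass (17.7 ± 1.35 CPM in LFA1-hi and 16.5 ± 2.74 CPM in LFA1-lo, SD, n = 3 each). Adar, which edits double-stranded RNA and restrains Zbp1, fell (−0.29, edgeR adjusted p = 0.0401), but 0 genes of the list fell once LFA1-lo replicate 3, or LFA1-hi replicate 2 or 3, was left out.

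The Pyhin genes lie together on chromosome 1, and Aim2 and Ifi205 mark the ends of a 682 kb stretch from 173349547 to 174031755 (GRCm38) in which 12 family members were listed. BC094916 and Ifi202b were at 0 in all 6 libraries. The other 10 were tested, of which 0 rose and 3 fell (AI607873, Mndal and Ifi203), against the 15.6% of all tested genes that were lower and 31.7% called in all. Leaving out LFA1-lo replicate 1 gave 5 that fell, leaving out LFA1-lo replicate 2 gave 2, leaving out LFA1-lo replicate 3 or LFA1-hi replicate 2 gave 1, and leaving out LFA1-hi replicate 1 or 3 gave 0, with 0 that rose each time. Members of this family resemble one another: 30.2% of the 50-base stretches of Ifi204 transcripts, 49.6% of those of Ifi205, 16.5% of those of Ifi203 and 30.1% of those of Mndal also occur in transcripts of other genes, most often Ifi211 or, for Ifi203, its pseudogene. The expected counts of these 4 genes were fractional in every library, whereas those of the other 6 were whole, to the 2 decimals deposited, in every library. Values of single Pyhin genes are therefore uncertain to the extent that reads were shared out between copies.

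Ifi203, at 173920400 to 173942866 on the minus strand, was at 31.2, 35.5 and 30.3 CPM in LFA1-hi replicates 1 to 3, against 35.0, 52.6 and 69.6 CPM in LFA1-lo replicates 1 to 3. LFA1-hi replicate 2 lay just above LFA1-lo replicate 1, so the groups overlapped in CPM by library totals. In TPM LFA1-hi replicate 2 was at 16.25 and LFA1-lo replicate 1 at 16.13. Overlap after TMM scaling was not computed. The log2 fold change was −0.76 (SE 0.22, edgeR adjusted p = 0.0310). This is the least stable of the 5 calls: it passed in 9 of 18 other settings and, when 1 library was left out, only without LFA1-lo replicate 1. Direction was kept in all 18, with −0.98 to −0.51. The mean transcript length of Ifi203 was 4120, 4080 and 4041 bases in LFA1-hi and 4263, 4245 and 4292 bases in LFA1-lo, without overlap, which reflects the isoforms that the estimate assigned.

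Mndal, at 173857215 to 173880382 on the minus strand, was at 27.1, 32.5 and 26.3 CPM in LFA1-hi replicates 1 to 3, against 34.6, 42.5 and 55.9 CPM in LFA1-lo replicates 1 to 3. All LFA1-hi libraries were below all LFA1-lo libraries. The log2 fold change was −0.69 (SE 0.17, edgeR adjusted p = 0.0128), and it passed in 16 of 18 other settings, but not without LFA1-hi replicate 1 (edgeR adjusted p = 0.0629) or replicate 3 (edgeR adjusted p = 0.0601). Counted together with Ifi203, a choice made after the data were seen, the pair was at 58.3, 68.0 and 56.6 CPM in LFA1-hi, against 69.6, 95.2 and 125.5 CPM in LFA1-lo (log2 fold change −0.73, SE 0.19, edgeR adjusted p = 0.0216). Leaving out LFA1-lo replicate 1 gave −0.92 for the pair (edgeR adjusted p = 0.00250), and the call was lost when LFA1-lo replicate 2 (edgeR adjusted p = 0.126), LFA1-hi replicate 1 (0.0743) or LFA1-hi replicate 3 (0.0789) was left out.

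The sequences before Ifi203 and Mndal are near copies. Over 250 bases before a start site of each, 233 aligned positions were identical, 6 were mismatched and 22 were gaps in one or the other, an identity of 89.3% over the alignment. The interferon response core was found before 3 of the 7 genes with a window (Ifi205, Ifi203 and Mndal), and in 2.98% of all 32851 windows or 3.46% of the 27025 genes they belong to. These windows are printed because they show the copy and the match side by side, with the core in capitals, all on the minus strand, at chr1:173942493-173942592 for Ifi203, chr1:173880188-173880287 for Mndal and chr1:174031835-174031934 for Ifi205.
Ifi203: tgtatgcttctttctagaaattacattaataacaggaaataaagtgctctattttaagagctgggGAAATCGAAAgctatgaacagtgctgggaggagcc
Mndal: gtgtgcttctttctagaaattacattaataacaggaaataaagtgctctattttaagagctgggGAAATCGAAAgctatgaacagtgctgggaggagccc
Ifi205: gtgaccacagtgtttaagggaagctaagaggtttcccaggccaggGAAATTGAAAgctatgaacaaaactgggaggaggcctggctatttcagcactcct
The core began 35 bases before the second listed start of Ifi203, 36 bases before the first start of Mndal and 134 bases before the start of Ifi205. The window of the first Ifi203 start held none, and that of the second Mndal start held another match 54 bases before it.

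Ifi204, a DNA-binding member of the family reported to act upstream of STING in mice, lies at 173747293 to 173767069. It was at 75.4, 89.9 and 75.2 CPM in LFA1-hi replicates 1 to 3, against 60.9, 123 and 112 CPM in LFA1-lo replicates 1 to 3. The LFA1-hi values lay between LFA1-lo replicate 1 and the other LFA1-lo libraries. The log2 fold change was −0.36 (SE 0.25, 95% interval −0.95 to 0.22, edgeR adjusted p = 0.307), and without LFA1-lo replicate 1 it was −0.62 and passed (edgeR adjusted p = 0.00711). Ifi205, at 174011998 to 174031755 on the minus strand, was the scarcest of the 10, with 34, 34 and 25 counts in LFA1-hi and 2, 50 and 24 counts in LFA1-lo. Its highest LFA1-lo level was 25.9 times its lowest. The log2 fold change of 0.22 (SE 0.77, 95% interval −1.55 to 1.98, edgeR adjusted p = 0.856) was −0.33 without LFA1-lo replicate 1 and 1.24 when replicate 2 of that group was left out. Its sign thus turned with the LFA1-lo library left out.

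Of the 4 tested genes on a list of other Pyhin genes 1 fell, and 2 did without LFA1-lo replicate 1. The one that fell, AI607873, named Ifi207 in RefSeq, was at 197, 202 and 179 CPM in LFA1-hi, against 205, 286 and 246 CPM in LFA1-lo (log2 fold change −0.42, SE 0.12, edgeR adjusted p = 0.0307), but the call was lost once LFA1-lo replicate 3 or any of the LFA1-hi libraries was left out. The gene listed as Mnda, which RefSeq names Ifi211 and with which Ifi204 and Ifi205 share most sequence, was at 41.4 ± 2.87 CPM in LFA1-hi and 38.7 ± 15.4 CPM in LFA1-lo (SD, n = 3 each, log2 fold change 0.04, edgeR adjusted p = 0.939). Its log2 fold change was −0.26 without LFA1-lo replicate 1 (edgeR adjusted p = 0.134) and −0.02 when LFA1-hi replicate 1 was left out. With all 12 genes counted as 1, again chosen after the data were seen, the family was at 435 ± 28.1 CPM in LFA1-hi and 531 ± 121 CPM in LFA1-lo, and the difference did not pass (SD, n = 3 each, edgeR adjusted p = 0.130). Its log2 fold change was −0.35, with an SE of 0.16. Leaving out LFA1-lo replicate 1 gave −0.53 and the difference passed (SE 0.09, edgeR adjusted p = 0.00465), while leaving out any 1 of the other libraries gave −0.38 to −0.22 and it did not pass.

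**Figure D3:**
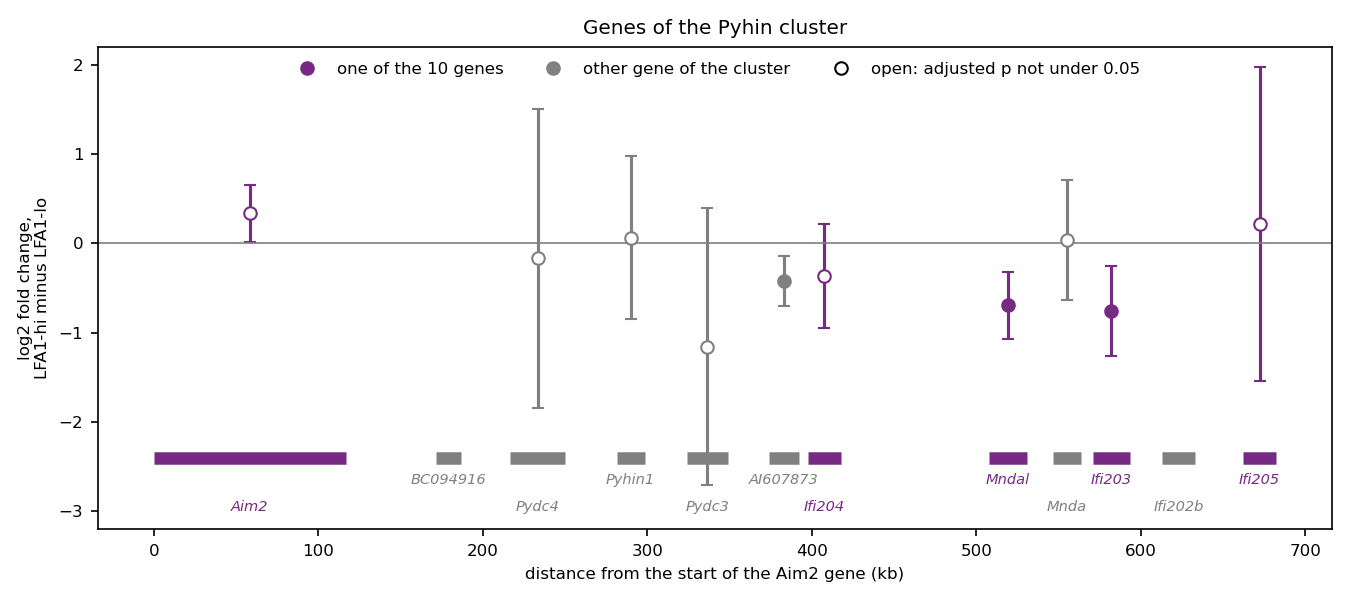
Log2 fold change (vertical axis, LFA1-hi minus LFA1-lo) with its 95% interval for the 10 tested genes of the Pyhin cluster, against distance in kb from the start of Aim2, with bars below for the extent of each gene. Filled points passed the threshold. The 3 genes that fell (AI607873, Mndal and Ifi203) have Ifi204 and Mnda between them, which did not pass.

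The order of levels within a group was read from TPM. In LFA1-hi it was Samhd1 (97.1 ± 2.64 TPM), Ifi204 (67.1 ± 8.08), Trex1 (48.9 ± 6.36), Tmem173 (34.6 ± 1.46), Mndal (29.5 ± 3.93), Zbp1 (19.9 ± 3.40), Aim2 (19.8 ± 1.06), Ifi203 (14.6 ± 1.46), Mb21d1 (11.5 ± 0.601) and Ifi205 (2.33 ± 0.528 TPM, SD, n = 3 each). Only Tmem173 and Mndal, and Zbp1 and Aim2, overlapped as neighbours there. In LFA1-lo Samhd1 (198 ± 32.0 TPM) was again first, and Trex1 (101 ± 26.9) came before Ifi204 (87.1 ± 28.6), Mndal (48.2 ± 11.3), Tmem173 (35.9 ± 5.03), Zbp1 (29.0 ± 21.9), Ifi203 (23.8 ± 7.55), Aim2 (15.9 ± 3.18), Mb21d1 (5.77 ± 0.702) and Ifi205 (1.97 ± 1.92 TPM, SD, n = 3 each). From Trex1 down to Aim2 each neighbour overlapped the next. The sensor gene Mb21d1 was thus next to last in both groups, and the TPM of Trex1 divided by that of Mb21d1, a ratio chosen after the values were seen, was 4.64, 4.17 and 3.89 in LFA1-hi, against 12.1, 20.7 and 20.5 in LFA1-lo.

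**Figure D4:**
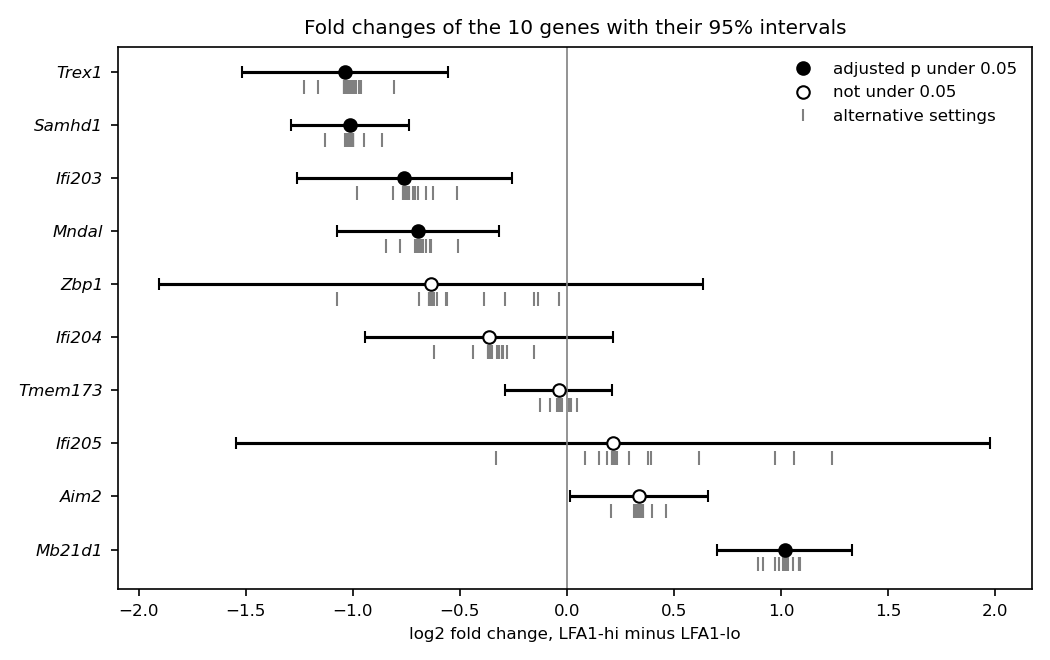
Log2 fold change (horizontal axis, LFA1-hi minus LFA1-lo) of the 10 genes with 95% intervals, filled where the adjusted p was under 0.05, and grey ticks for the value under each other setting. The ticks of Mb21d1, Trex1 and Samhd1 stay between 0.81 and 1.23 from 0, those of Zbp1 reach from −1.08 to −0.03, and those of Ifi205 lie on both sides of 0.

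All 10 genes varied more within LFA1-lo than within LFA1-hi, as did 71.1% of tested genes. For 7 of the 10 (Zbp1, Trex1, Samhd1, Ifi204, Ifi205, Ifi203 and Mndal) LFA1-lo replicate 1 was the lowest LFA1-lo library. The interferon-stimulated sum was also lowest there within LFA1-lo: its 28 genes summed to 1539, 1426 and 1362 CPM in LFA1-hi replicates 1 to 3, against 1585, 2570 and 2371 CPM in LFA1-lo replicates 1 to 3. LFA1-lo replicate 1 was thus near the LFA1-hi libraries in this sum, while for dividing cell markers (849 CPM) and for Mb21d1 (12.9 CPM) it was among the LFA1-lo libraries. For Trex1 (33.6 CPM), Samhd1 (336 CPM) and Mndal (34.6 CPM) LFA1-lo replicate 1 stayed above every LFA1-hi library. Ifi203 and Mndal were highest in LFA1-lo replicate 3, whereas the sum was highest in replicate 2. The part of the interferon-stimulated genes in the results for the 7 was not tested.

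**Figure D5:**
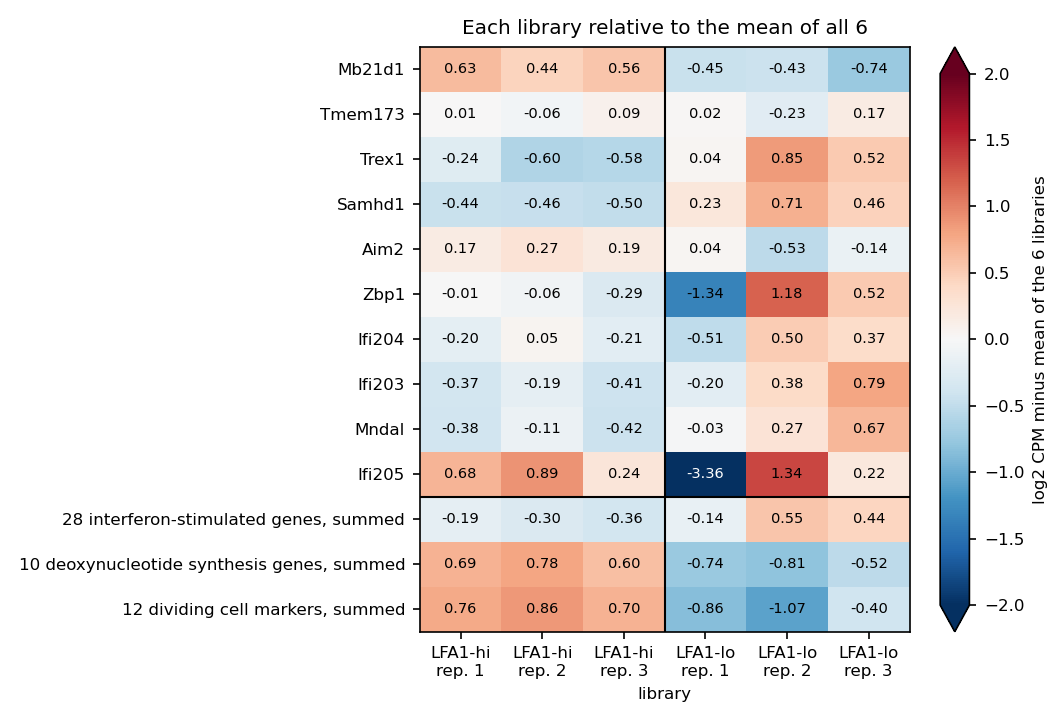
Log2 CPM of each gene, and of 3 summed gene lists, minus its mean over the 6 libraries, with LFA1-hi in the left columns and LFA1-lo in the right columns. LFA1-lo replicate 1 is below the other LFA1-lo libraries for Zbp1 (−1.34), Ifi204 (−0.51) and the interferon-stimulated sum (−0.14), and with the other LFA1-lo libraries for Mb21d1 (−0.45) and the dividing cell markers (−0.86).

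Of the 28 interferon-stimulated genes 12 fell and 0 rose, with a median log2 fold change of −0.64. Leaving out LFA1-lo replicate 1 gave 21 that fell, leaving out LFA1-lo replicate 2 or 3, or LFA1-hi replicate 3, gave 6, and leaving out LFA1-hi replicate 2 gave 7. Without LFA1-lo replicate 2, 2 of them rose. Ifit3 was at 11.1, 7.90 and 6.19 CPM in LFA1-hi, against 19.2, 73.6 and 52.8 CPM in LFA1-lo (log2 fold change −2.60, SE 0.52, edgeR adjusted p = 0.0117). Ifit1, of the same family, gave −2.23 (edgeR adjusted p = 0.0144). Both lost the call when LFA1-lo replicate 2 or 3 was left out and with limma voom in place of edgeR, and Ifit1 also with no filter on low counts. Of 10 genes of type I interferon receptor signalling 8 fell and 0 rose, with a median of −0.39, and 2 to 4 fell once LFA1-lo replicate 1 or any of the LFA1-hi libraries was left out. Ifnar1, a chain of the receptor, was at 193 ± 3.17 CPM in LFA1-hi and 298 ± 15.6 CPM in LFA1-lo (SD, n = 3 each, log2 fold change −0.69, edgeR adjusted p = 0.000154). Irf1, an interferon-responsive transcription factor, was at 31.6 ± 1.97 CPM in LFA1-hi and 70.8 ± 8.73 CPM in LFA1-lo (SD, n = 3 each, log2 fold change −1.23, edgeR adjusted p = 0.000116). Both passed under all 18 other settings.

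Sensors of RNA switch on the same interferon genes. Of 9 genes 3 fell and 0 rose, with a median log2 fold change of −0.31, and 6 fell without LFA1-lo replicate 1 but 2 without any 1 LFA1-hi library. Ddx58, which encodes the RNA sensor RIG-I, was at 47.1, 54.5 and 43.5 CPM in LFA1-hi, against 64.3, 87.1 and 115 CPM in LFA1-lo (log2 fold change −0.94, SE 0.19, edgeR adjusted p = 0.00784). It did not pass without LFA1-lo replicate 2 (edgeR adjusted p = 0.0649). Trim25, a ubiquitin ligase that acts with RIG-I, was at 209 ± 4.70 CPM in LFA1-hi and 275 ± 28.2 CPM in LFA1-lo (SD, n = 3 each, log2 fold change −0.46, edgeR adjusted p = 0.00584). Mavs, the adaptor of these sensors, did not pass, with 44.3 ± 1.72 CPM in LFA1-hi and 43.2 ± 6.33 CPM in LFA1-lo (SD, n = 3 each). The third that fell was Zc3hav1 (−0.31), an antiviral RNA-binding protein.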

How the data were processed

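Per the labels' protocols, total RNA of day 7 was freed of ribosomal RNA with RNase H and sequenced on a NextSeq2000. Reads went through bcl2fastq, Trim Galore and RSEM on GRCm38, per the submitters' processing notes. Not given in the sources used here are their versions, the annotation release and any use of strand. The deposited tables hold, per the file headers, expected counts per gene that are not normalized. The deposited TPM and FPKM are, per the file headers, scaled by length and depth, and FPKM was not used.

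For the test, expected counts were rounded, filtered with filterByExpr and scaled by TMM (factors 0.956 to 1.034). The CPM levels shown were scaled by library totals alone. LFA1-hi minus LFA1-lo was tested two-sided with edgeR 4.0.16 (robust quasi-likelihood, R 4.3.3, biological coefficient of variation 15.0%, Benjamini-Hochberg over 11692 genes), after a check on simulated data. SEs and 95% intervals come from that fit. Alternatives were other scalings, filters, unrounded counts, a fit that is not robust, DESeq2 1.42.0, limma 3.58.1 (voom, and trend on log2 of TPM + 0.1 or + 1), a replicate block and leaving out each library.

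The members and gene lists were chosen with earlier results of these data known. The text names the 10 members and, from each pathway list, up to 2 called genes with the largest change whose groups do not overlap and whose CPM averages 1 or more; further genes named beside a list were chosen after their values were seen. Coordinates and promoters are from RefSeq (GRCm38.p6), to which 24161 of the 24411 listed genes matched by transcript accession. Shared 50-base stretches were counted in GENCODE transcripts. Promoter windows of Tmem173, Zbp1 and Ifi204 were not used here. Python 3.11.15 with matplotlib 3.10.9, numpy 2.4.6 and pandas 2.3.3 served for the rest.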

Additional observations from a re-analysis of the deposited data

How the results depend on the processing

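Of 178 values of the 10 genes recomputed under the 18 planned settings, 161 kept their direction and their side of the threshold, 11 no longer passed (Ifi203 and Mndal), 2 newly passed (Zbp1 and Ifi204, both without LFA1-lo replicate 1) and 4 turned sign. The last were Tmem173 with library totals alone (0.021) and when LFA1-lo replicate 3 or LFA1-hi replicate 2 was left out (0.047 and 0.01, with −0.13 to 0.047 over the 6 libraries), and Ifi205 without LFA1-lo replicate 1 (−0.33, with −0.33 to 1.24 over the 6). None of these 4 passed the threshold, and the cause was not tested. Mb21d1, Trex1 and Samhd1 passed in all 18 planned settings. With 1 library left out, 2 to 6 of the 10 genes were lower in LFA1-hi and 1 was higher. Of all tested genes 2288 to 5032 were then called, against 3705 with all 6 libraries. The cause of that range was not tested. Scaling by library totals alone made 60.9% of all calls higher in LFA1-hi (2294 higher, 1471 lower) against 50.8% (1883 higher, 1822 lower), with a median log2 fold change of 0.06. Zbp1 and Ifi205 had no value with at least 10 CPM required in 3 libraries. Same-numbered replicates did not deviate together (correlations 0.04, 0.02 and −0.07). With 3 libraries in each group this cannot show whether same-numbered libraries share a mouse or dish. With the replicate block 4 of the 10 genes were lower and 1 higher, and 3253 genes were called in all. Ifit3 was not called with the replicate block. Ifi205 had the fewest counts of the 10 genes, 2 to 50 per library.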
